A study of Sus scrofa with 4 samples.

Results

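The genes described here are inflammatory cytokines and chemokines (IL1A, IL1B, IL6, TNF, CXCL8, CXCL2 and IL10), the receptor antagonist IL1RN, and the NF-kB subunits NFKB1 and RELA, in the thymus of IL2RG knockout (KO) pigs and wildtype (WT) pigs. They were chosen by name, with earlier results of these data known, and every array probe whose RefSeq accession belonged to one of them was taken. Of the 10 genes listed, 9 had a named probe, out of 3020 genes that could be named on the array, of which 2702 were tested. IL1RN had no named probe here. Among the 9 genes, 4 had 1 probe and 5 had 2 probes, which gave 14 probes in all. Where a gene had 2 probes, the brighter is called probe 1.

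Total RNA from thymus was measured on 4 porcine oligonucleotide arrays, 2 for KO and 2 for WT, with 1 sample and 1 dye per array. The KO pigs carried the genotype IL2RG+/- in the labels. They came from cells in which 1 allele of the gene for the common cytokine receptor gamma chain had been cut with TALENs, followed by somatic cell nuclear transfer, and which donor cell colony each array pig came from is not given in the sources used here. Both genotypes were Minnesota miniature swine, no treatment is named for either, and the age of the array pigs is not given in the sources used here. In the study the thymus of KO pigs was rudimentary or missing, and the KO arrays come from a pair of KO pigs that had one. For WT the labels number the replicates without stating that they were separate animals, so that p values may measure a technical spread there.

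IL-1, TNF and IL-6 are the classical early cytokines of inflammation, made above all by macrophages, and also by stromal, endothelial and epithelial cells. IL-1 and TNF receptors signal through adaptor proteins and the IkB kinase complex, which removes the inhibitor IkB and lets NF-kB dimers such as p50 (from NFKB1) and p65 (RELA) enter the nucleus. NF-kB then switches on genes for cytokines, chemokines and adhesion molecules, and also for its own inhibitors NFKBIA and TNFAIP3. In the thymus macrophages, dendritic cells and the stroma are common sources of such cytokines, whereas thymocytes are by far the most abundant cells of a normal organ.

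IL2RG itself was lower in both KO arrays. Its 2 probes had normalized log2 signals of -3.15 and -3.29, and of -4.80 and -4.86, in the KO arrays, compared with -0.13 and 0.52, and -0.77 and -0.13, in the WT arrays. The log2 fold changes were -3.41 and -4.38 (adjusted p = 0.00256 and 0.00208 in limma). Where these probes lie relative to the edited site was not known here.

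The normalized log2 signal used throughout is the log2 processed signal of a probe minus the 75th percentile of its array, so that 0 is a bright probe and -4 a dim one, and levels of different probes are not compared. Log2 fold changes are KO minus WT. The array held 43603 probes. Of these 31959 passed the filter, which asked for a signal well above background in both samples of KO, of WT or of both, and limma was run on them. The threshold for a call was 2-fold together with an adjusted p (Benjamini-Hochberg) below 0.05. Slide 1 held KO replicate 1 and WT replicate 2, and slide 2 held KO replicate 2 and WT replicate 1. The samples also differed in markers of cell types. Of 12 tested thymocyte markers all 12 were called lower in KO, where 12.6% of the named genes were. Their summed linear levels were 29.7 and 28.7 in KO against 171 and 242 in WT. Even so, 11 of these markers were still well above background in both KO arrays. WT replicate 1 stood apart in neutrophil markers, as given below.

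Most of the cytokine genes were higher in KO thymus. IL10, IL1A and CXCL2 showed increases of about 4-fold or more, IL6 of 3-fold or more, and CXCL8, NFKB1 and 1 of the TNF probes of a little over 2-fold. IL1B was 1.81-fold higher, which is under the fold threshold, and RELA was not called in either direction. In total 10 of the 14 probes (71.4%) were called higher, where 21.0% of all tested probes were called higher, and 0 were called lower, where 13.0% of all tested probes were. One of the probes called, IL6 probe 2, passed the filter through KO alone, and without it 9 of 13 were called higher. At an unadjusted p under 0.05 in limma, without a fold threshold, 11 of the 14 probes were higher, IL6 probe 2 among them, and 0 lower. The shares of all tested probes at this looser threshold were not computed, so that these counts cannot be set against a background. Counted by gene with the brightest probe, 7 of 9 were called higher, where 25.2% of the named genes were, and no gene was called lower, where 12.6% were. The genes, and the lists further below, were chosen with earlier results of these data known. Shares and medians beside those of the whole array are therefore descriptions and no independent support.

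In 12 of the 14 probes both KO arrays lay above both WT arrays, an arrangement found in 37.7% of all tested probes. IL6 probe 2, which passed the filter through KO alone, is among the 12. The other 2 probes, both of RELA, had both KO arrays below both WT arrays, as did 41.0% of all tested probes. The median log2 fold change was 1.44 over the 14 probes and -0.06 over all tested probes. Over genes, each with its brightest probe, it was 1.27 for the 9 genes and -0.00 for all named genes. Replicates lay close together, with a median difference between the KO arrays of 0.16 and between the WT arrays of 0.28 over the 14 probes. Arrays of whole tissue measure RNA per sample, so that fewer cells of a type and less RNA per cell cannot be told apart. Leaving out 1 array at a time left between 7 and 11 of the 14 probes called higher, with 7 without either KO array, 8 without WT replicate 1 and 11 without WT replicate 2.

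**Figure D1:**
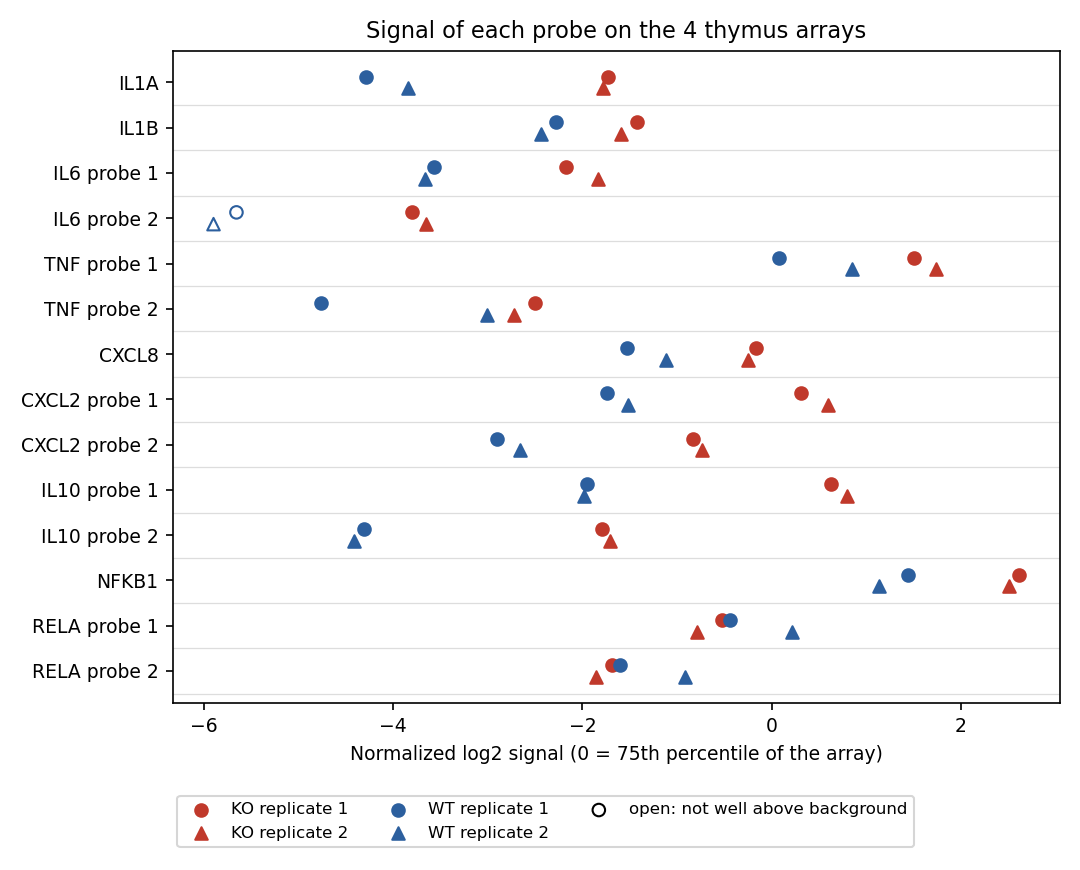
Normalized log2 signal (x axis, 0 is the 75th percentile of the array) of the 14 probes (y axis) on each of the 4 arrays, with KO in red, WT in blue, circles for replicate 1 and triangles for replicate 2. Red points lie to the right of blue points in 12 probes and to the left in the 2 RELA probes, and the open WT points of IL6 probe 2 were not well above background.

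IL-1 is made as 2 separate cytokines, IL-1α (IL1A) and IL-1β (IL1B), that act on the same receptor. IL-1α is active as made and acts as an alarm signal when cells are damaged, whereas IL-1β must be cleaved by caspase-1. The normalized log2 signal of IL1A was -1.73 and -1.78 in KO compared with -4.28 and -3.84 in WT. Both KO arrays were clearly above both WT arrays, and the spread within WT was wider than within KO. Mean signals were -1.75 ± 0.04 (SD, n = 2) in KO against -4.06 ± 0.31 (SD, n = 2) in WT, which is a log2 fold change of 2.31 with a 95% confidence interval from 1.74 to 2.87. This is 4.95-fold (adjusted p = 0.00320 in limma). Calls were repeated under 13 other settings of the limma fit (other scalings, background correction, filters and blocks, and each array left out), and IL1A was called under all 13, although a different background correction, normexp, reduced its log2 fold change to 1.34. The methods' t-test is not among the 13, and after Benjamini-Hochberg adjustment it called no probe of IL1A or of the other genes except those of IL10.

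The single IL1B probe gave -1.42 and -1.59 in KO compared with -2.28 and -2.44 in WT. The groups did not overlap, and the replicates of each genotype lay close together. Mean signals were -1.50 ± 0.12 (SD, n = 2) in KO against -2.36 ± 0.11 (SD, n = 2) in WT, and the log2 fold change was 0.85 with a confidence interval from 0.41 to 1.30 (adjusted p = 0.0174 in limma). The change stayed under 2-fold, so that IL1B was called under 0 of the 13 limma settings, with log2 fold changes between 0.59 and 0.94. Pigs have a near copy of this gene, IL1B2, for which the gene table gives IL1B as a synonym, and its values were added after the others had been seen. Its 1 tested probe had -2.77 and -2.71 in KO compared with -2.83 and -2.81 in WT, which is a log2 fold change of 0.08 with a confidence interval from -0.33 to 0.48 (adjusted p = 0.704 in limma). The other IL1B2 probes were too dim to be tested, and how far the IL1B and IL1B2 probes detect each other's mRNA was not known here.

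IL6 drives the acute phase response and the maturation of B cells. IL6 probe 1 had -2.17 and -1.83 in KO compared with -3.57 and -3.66 in WT, with means of -2.00 ± 0.24 (SD, n = 2) and -3.62 ± 0.07 (SD, n = 2). Both KO arrays were higher by far more than the replicates differed. The log2 fold change was 1.62 with a confidence interval from 1.11 to 2.12, or 3.06-fold (adjusted p = 0.00519 in limma). IL6 probe 2 had -3.80 and -3.65 in KO compared with -5.65 and -5.90 in WT, where it was not well above background. In raw signal units these are 54.6 and 55.4 against 12.3 and 11.7. It passed the filter through the KO arrays alone, so that a difference was built into its selection and its call is no support. With the processed signal the bound for IL6 probe 2 was 4.14-fold higher in KO (adjusted p = 0.00296 in limma). The WT level on each array was taken as the probe's own signal or the lowest signal well above background, whichever was higher. On both WT arrays this was the probe's own signal, so that the bound equals the ordinary estimate. The confidence interval of that estimate runs from 1.57 to 2.52 on the log2 scale. Under the normexp correction neither IL6 probe was called, with log2 fold changes of 0.91 and 0.40, the latter well under that bound. Probe 1 was called under 12 of the 13 limma settings and probe 2 under 10 of the 11 that included it.

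TNF is the cytokine that activates endothelium and starts the cascade of other inflammatory cytokines. TNF probe 1 had 1.50 and 1.73 in KO compared with 0.08 and 0.85 in WT. Both KO arrays were higher, but WT replicate 2 lay nearer to the KO arrays than WT replicate 1 did. Mean signals were 1.62 ± 0.16 (SD, n = 2) in KO against 0.46 ± 0.54 (SD, n = 2) in WT, and the log2 fold change of 1.15, or 2.23-fold, had a confidence interval from 0.33 to 1.98 (adjusted p = 0.0386 in limma). TNF probe 2 had -2.50 and -2.72 in KO compared with -4.76 and -3.01 in WT, which is a log2 fold change of 1.27 that was not called (confidence interval from -0.37 to 2.91, adjusted p = 0.154 in limma). In this probe too WT replicate 1 was the low array, and WT replicate 2 was nearly level with the KO arrays.

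The TNF result depended on single arrays. Without WT replicate 1 the log2 fold changes of probes 1 and 2 were 0.77 and 0.40, and neither was called. Without WT replicate 2 probe 2 was called at 2.15 (adjusted p = 0.00349 in limma). TNF probe 1 was called under 7 of the 13 limma settings. It was no longer called without either KO array (adjusted p = 0.114 without KO replicate 1 and 0.172 without KO replicate 2 in limma), with the slide as a block (0.0561), without a filter on dim probes (0.0633) or when arrays were scaled to their median (0.0717).

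CXCL8 (interleukin-8) and CXCL2 are chemokines that attract neutrophils and are induced by IL-1 and TNF. CXCL8 had -0.17 and -0.26 in KO compared with -1.53 and -1.12 in WT, so that both KO arrays were higher. The means were -0.21 ± 0.06 (SD, n = 2) and -1.32 ± 0.29 (SD, n = 2), and the log2 fold change was 1.11, or 2.16-fold, with a confidence interval from 0.56 to 1.66 (adjusted p = 0.0149 in limma). CXCL8 was close to the fold threshold and was called under 8 of the 13 limma settings, and its log2 fold change was 0.85 with median scaling, 0.96 with normexp and 0.91 without WT replicate 1. It also missed the threshold without KO replicate 1 or KO replicate 2 (adjusted p = 0.101 and 0.0909 in limma).

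CXCL2 was higher in KO by both of its probes. CXCL2 probe 1 had 0.31 and 0.59 in KO compared with -1.74 and -1.52 in WT, and probe 2 had -0.83 and -0.74 in KO compared with -2.90 and -2.65 in WT. Neither probe had overlapping groups. The log2 fold changes were 2.08 (confidence interval from 1.57 to 2.60, adjusted p = 0.00324 in limma) and 1.99 (from 1.53 to 2.46, adjusted p = 0.00298), or 4.23-fold and 3.98-fold. Both probes were called under all 13 limma settings.

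IL10, which restrains macrophages and dampens the production of the other cytokines named here, had the largest change of the 9 genes. IL10 probe 1 had 0.63 and 0.80 in KO compared with -1.95 and -1.99 in WT, and probe 2 had -1.80 and -1.71 in KO compared with -4.31 and -4.41 in WT. Replicates of each genotype lay close together and the genotypes far apart in both probes. The means of probe 1 were 0.71 ± 0.12 (SD, n = 2) in KO against -1.97 ± 0.02 (SD, n = 2) in WT. The difference was 2.68 on the log2 scale, with a confidence interval from 2.25 to 3.11, or 6.41-fold, and probe 2 gave 2.61 (from 2.19 to 3.02), or 6.09-fold (adjusted p = 0.00208 for both in limma). Of all tested probes, 94.3% had a lower log2 fold change than IL10 probe 1 and 93.7% a lower one than probe 2. Both were called under all 13 limma settings, and they were also the 2 probes that the methods' t-test called after Benjamini-Hochberg adjustment.

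The NF-kB subunits gave different calls, and the difference between them was not tested. NFKB1, which encodes p105 and its product p50, had 2.62 and 2.51 in KO compared with 1.44 and 1.14 in WT, with means of 2.56 ± 0.08 (SD, n = 2) and 1.29 ± 0.22 (SD, n = 2). Both KO arrays were above both WT arrays. Its log2 fold change was 1.27, or 2.41-fold, with a confidence interval from 0.78 to 1.77 (adjusted p = 0.00834 in limma). NFKB1 was called under 11 of the 13 limma settings, and not without KO replicate 1 (adjusted p = 0.0700 in limma) or KO replicate 2 (0.0611). RELA encodes p65, the subunit that carries the transactivation domain. RELA probe 1 had -0.52 and -0.79 in KO compared with -0.44 and 0.21 in WT, and probe 2 had -1.69 and -1.85 in KO compared with -1.60 and -0.92 in WT. The KO arrays were lower in both probes, but WT replicate 1 lay next to KO replicate 1. The log2 fold changes were -0.55 (confidence interval from -1.30 to 0.20, adjusted p = 0.174 in limma) and -0.51 (from -1.26 to 0.24, adjusted p = 0.199), and neither was called under any of the 13 limma settings. These intervals contain both no change and a decrease of 2-fold.

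**Figure D2:**
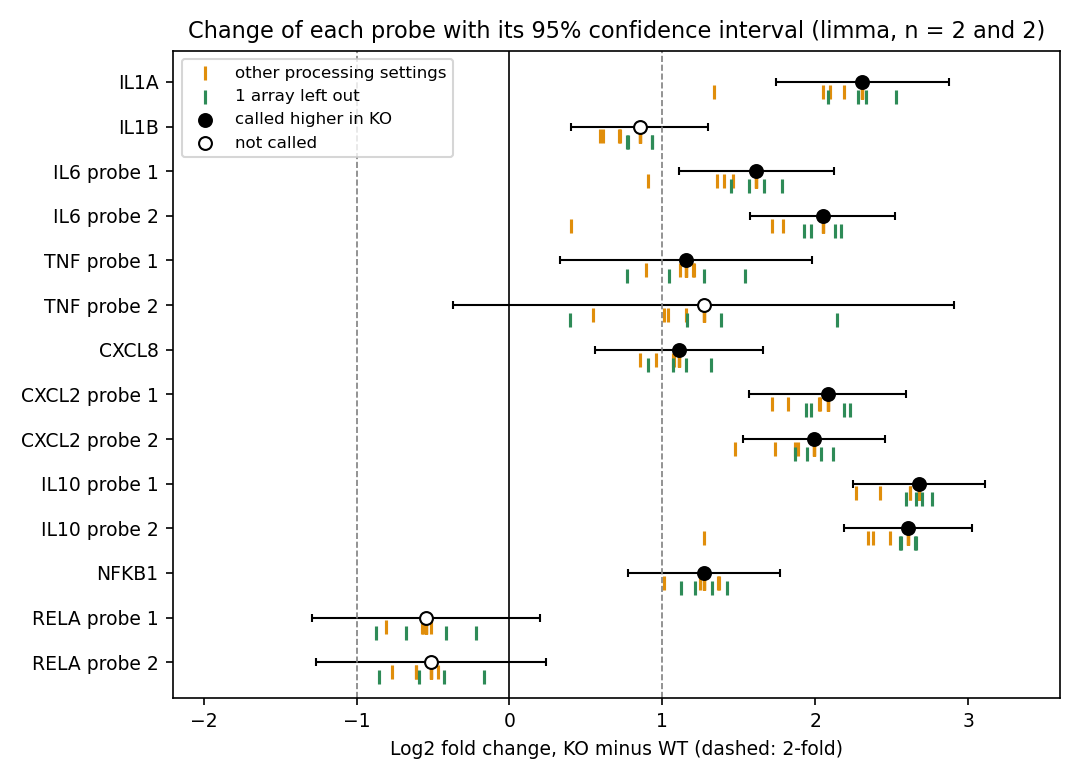
Log2 fold change of each probe, KO minus WT (x axis), with its 95% confidence interval from limma (n = 2 arrays per genotype), the value under other processing settings (orange ticks) and with 1 array left out (green ticks). Filled points are the 10 probes called higher, open points the 4 that were not called, and the interval of TNF probe 2, from -0.37 to 2.91, is the widest.

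For the 5 genes with 2 probes, both probes had the same direction. For IL6 this adds no support, since a difference was built into the selection of probe 2. The log2 fold change of the dimmer probe minus that of the brighter one was -0.07 for IL10, -0.09 for CXCL2, 0.04 for RELA, 0.12 for TNF and 0.43 for IL6. For IL6 the dimmer value is a lower bound with the processed signal only and equals the ordinary estimate. With normexp the log2 fold change of that probe was 0.40.

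Each slide held 1 KO and 1 WT array, so that the difference between genotypes could also be read within each slide. All 14 probes had the same sign on both slides. This follows from the separation of the groups given above, so that it adds no support. On slide 1, 9 of the 14 probes were at least 2-fold higher in KO, and on slide 2, 11 were. Both counts include IL6 probe 2, which passed the filter through KO alone, and the shares over all tested probes were not computed. IL10 probe 1 differed by 2.61 on slide 1 and 2.75 on slide 2, and probe 2 by 2.61 and 2.60. IL1A differed by 2.11 and 2.50, and NFKB1 by 1.48 and 1.06. TNF was the least even, with 0.66 and 1.65 for probe 1 and 0.51 and 2.03 for probe 2.

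**Figure D3:**
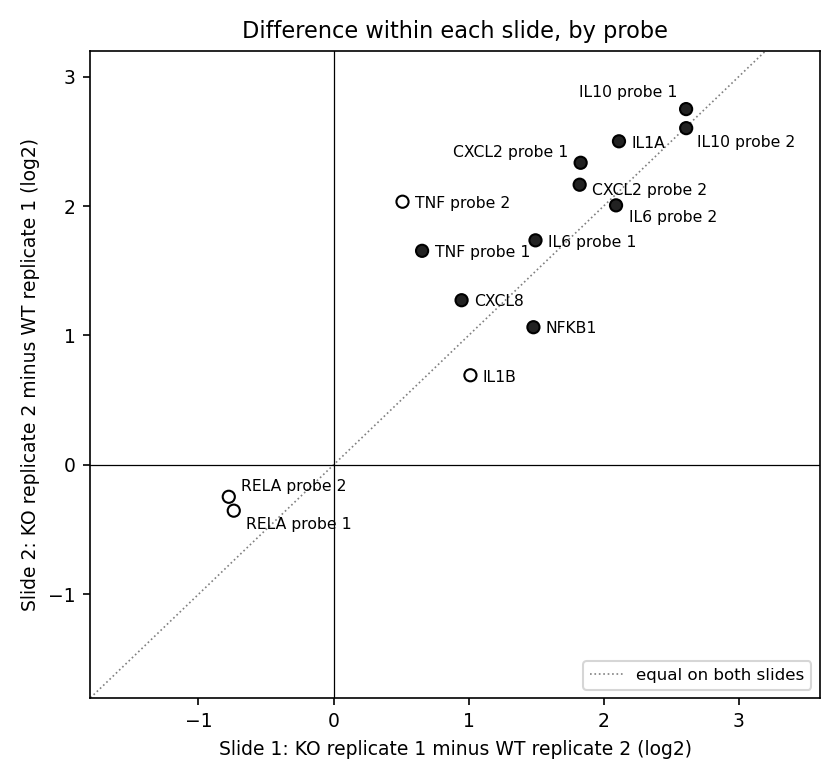
Log2 difference between the KO and the WT array on slide 1 (x axis) and on slide 2 (y axis) for each of the 14 probes, filled where the probe was called. All points lie in the quadrants where both slides have the same sign, which follows from the separation of the groups. The TNF probes lie farthest above the dotted line of equal differences.

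**Figure D4:**
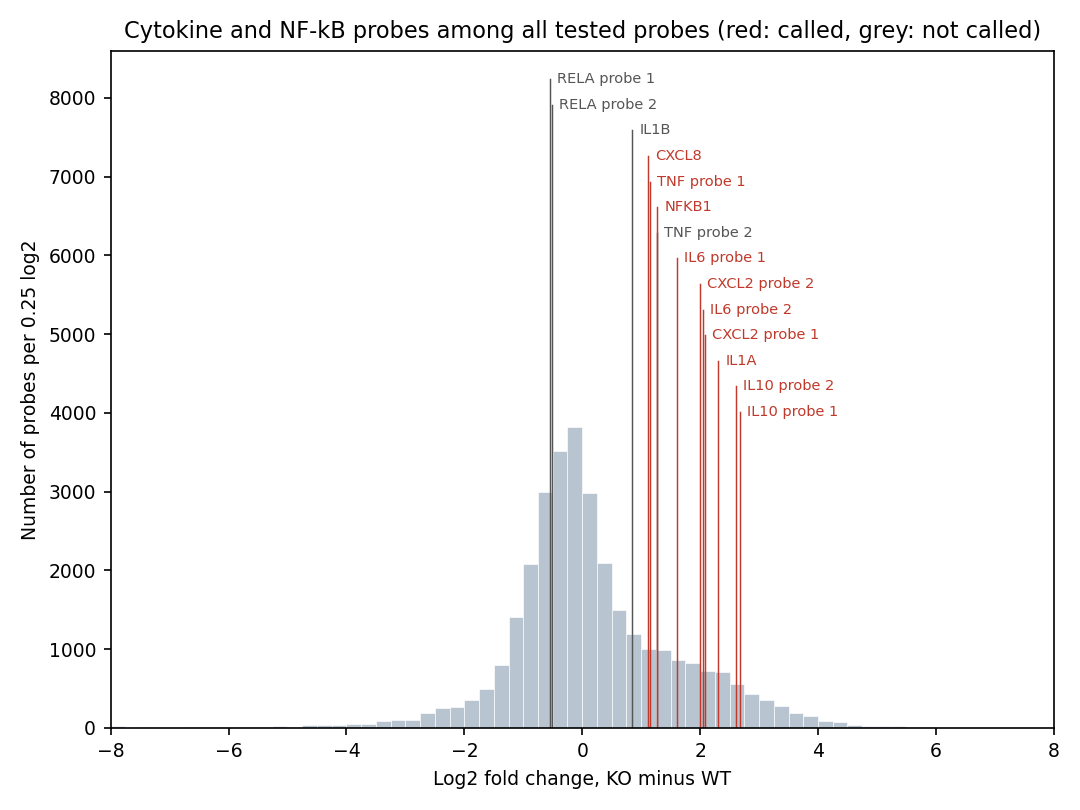
Number of tested probes per 0.25 of log2 fold change, KO minus WT (grey bars, linear y axis), with a line for each cytokine and NF-kB probe at its own value, red where called and grey where not (line heights carry no value). The lines run from -0.55 for RELA probe 1 to 2.68 for IL10 probe 1, while the median of all probes is -0.06.

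Markers of cell types differed between the genotypes in both directions. Among the named genes as a whole, 25.2% were called higher and 12.6% lower. All 10 tested macrophage markers (of 15 listed) were higher in KO, by 1.65 to 3.05 on the log2 scale, and their summed linear level was 307 and 380 in KO against 82.1 and 60.9 in WT. Among them were CD14, CD163 and MRC1, whereas CD68 and CSF1R had no tested probe. The 4 tested fibroblast markers and the 3 tested endothelial markers were also all higher, with median log2 fold changes of 2.26 and 2.23. Several of these marker calls rested on single arrays. Without KO replicate 1 and without KO replicate 2, the markers still called were 8 and 7 of the 10 for macrophages, 1 and 1 of the 4 for fibroblasts and 2 and 2 of the 3 for endothelium. Of the 3 tested markers of thymic epithelium, KRT8 and CLDN4 were higher and EPCAM was not called. The adipocyte markers ADIPOQ, FABP4 and PLIN1 were higher as well, and their summed level with LEP was 35.3 and 104 in KO against 12.7 and 5.89 in WT, but 0 of these 3 were called without KO replicate 2 and 1 without WT replicate 2. The 3 tested B cell markers were all lower. None of the 5 tested neutrophil markers was called (in limma 1 of them was lower at an unadjusted p under 0.05, a share not computed over all named genes), and their summed level was 1.97 and 7.54 in the KO arrays, 107 in WT replicate 1 and 7.69 in WT replicate 2. The defining neutrophil genes MPO and ELANE had no tested probe. Without WT replicate 1, the array with the high neutrophil markers, TNF probe 1 (0.77) and CXCL8 (0.91) were no longer called and TNF probe 2 had 0.40, while IL10 probe 1 (2.70), IL1A (2.09) and CXCL2 probe 1 (1.97) were called. The part of these cell types, neutrophils included, in the cytokine changes was not tested.

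The receptors of these cytokines were followed in a list of 11 genes, of which 5 had a tested probe. Of these, 3 were called higher and 0 lower. The median over the 5 was a log2 fold change of 1.09. Of all named genes, 25.2% were called higher and 12.6% lower. IL6ST, the gp130 chain through which IL-6 signals, had 1.62 and 1.60 in KO compared with -0.35 and -0.53 in WT, which is a log2 fold change of 2.05 (adjusted p = 0.00254 in limma), and was called under all 13 limma settings. IL10RB, the shared chain of the IL-10 receptor, had a log2 fold change of 1.28 (adjusted p = 0.0181 in limma), and TNFRSF1B, the second TNF receptor, of 1.09 (adjusted p = 0.0122 in limma). Both calls depended on the setting. IL10RB was not called without either KO array or without WT replicate 2, and TNFRSF1B was called under 6 of the 13 limma settings and had 0.83 with median scaling. TNFRSF1A, the main TNF receptor, had 3.70 and 4.56 in KO compared with 4.88 and 4.22 in WT, so that the groups overlapped, and it was not called. The brightest IL6R probe was not called, with a log2 fold change of 0.31, while 2 of the 3 tested IL6R probes were called higher. The receptors for IL-1 and for CXCL8 had no tested probe.

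Of 13 genes for other subunits, kinases and inhibitors of NF-kB, 6 had a tested probe. Of these 0 were called higher, where 25.2% of all named genes were, and 1 was called lower, where 12.6% were, and the median log2 fold change was -0.47. At an unadjusted p under 0.05 in limma, 1 was higher and 3 were lower, and the shares over all named genes were not computed at that threshold. TNFAIP3, which encodes the inhibitor A20 and is itself an NF-kB target, had 0.06 and -0.18 in KO compared with 0.66 and 1.25 in WT. The log2 fold change of TNFAIP3 was -1.02 (adjusted p = 0.0352 in limma), just past 2-fold lower, and it was called under 6 of the 13 limma settings, not without KO replicate 1, KO replicate 2 or WT replicate 2. NFKBIA, the IkB alpha inhibitor and another target, was bright on every array, with 6.64 and 6.59 in KO compared with 6.07 and 6.55 in WT, and was not called (log2 fold change 0.31, adjusted p = 0.304 in limma). The genes of the IkB kinase complex, CHUK, IKBKB and IKBKG, had -0.89, -0.34 and -0.60, and TNIP1, which encodes a partner of A20, had 0.70, all of them under 2-fold. Of these, CHUK and TNIP1 had an adjusted p under 0.05 (0.0421 and 0.0378 in limma). When arrays were scaled to their median CHUK had -1.15 and was called lower, while TNIP1 had 0.44. NFKB2, REL and RELB had no tested probe.

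Of 15 genes for adaptors and signal kinases downstream of the receptors, 8 were tested. Of these 0 were called in limma, where 25.2% and 12.6% of all named genes were called higher and lower, and the median log2 fold change was -0.36. With limma 1 gene was higher and 3 were lower at an unadjusted p under 0.05, for which the shares over all named genes were not computed. TRAF6 and MAP3K7, which link the IL-1 receptor to the IkB kinases, had -0.82 and -0.92 (adjusted p = 0.0150 and 0.0143 in limma), under 2-fold. When arrays were scaled to their median these were -1.08 and -1.17 and were called lower. STAT3, which carries the IL-6 and IL-10 signals, had 0.82 with its brightest probe, and 2 of its 4 tested probes were called higher. MYD88 had 0.21, which became -0.05 with median scaling.

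Of the genes that process IL-1 and TNF, 3 of 6 were tested. CASP1, the protease that activates IL-1β and IL-18, had 1.13 and 1.53 in KO compared with -0.45 and -1.52 in WT. The log2 fold change of CASP1 was thus 2.31 (adjusted p = 0.0138 in limma), and it was not called without KO replicate 2. NLRP3, the sensor of the inflammasome that activates caspase-1, was called lower at a log2 fold change of -1.11 (adjusted p = 0.00787 in limma), and was not called without either KO array or with normexp. ADAM17, which releases TNF from the cell surface, had 0.20, or -0.06 with median scaling, and was not called.

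Known NF-kB target genes other than the cytokines were a list of 19, of which 16 had a tested probe. Of these, 9 were called higher, where 25.2% of all named genes were, 1 was called lower, where 12.6% were, and 6 were not called, and the median log2 fold change was 1.50. The count of genes called higher lay between 7 and 11 with 1 array left out, and it was 11 without WT replicate 1. ICAM1, VCAM1 and SELE, which encode adhesion molecules that endothelium can carry, rose by 2.01, 2.43 and 2.11 on the log2 scale. The endothelial markers PECAM1, VWF and CDH5 had 1.79, 2.23 and 2.32, and their part in these values was not tested. CCL2, the chemokine that draws monocytes, had 4.18 and 4.22 in KO compared with 1.11 and 0.91 in WT, which is a log2 fold change of 3.19 (adjusted p = 0.00205 in limma). The growth factor CSF2 rose by 1.98, the transcription factor IRF1 by 1.70, PTGS2, the inducible prostaglandin synthase, by 1.28, the coagulation starter F3 by 1.47, and the protease PLAU by 1.83. PTGS2 and F3 were not called without either KO array, and PTGS2 also not with normexp.

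Other target genes went differently. MMP9, a protease stored in neutrophils, had 1.61 and 1.99 in the KO arrays, 3.94 in WT replicate 1 and 3.12 in WT replicate 2, a log2 fold change of -1.73 (adjusted p = 0.0171 in limma), and was not called without either KO array. The higher of its WT arrays was the one with the high neutrophil markers, whose part in this value was not tested. CCL20 was at 0.502 of its WT level (adjusted p = 0.0127 in limma), just under 2-fold, and CSF3 had -0.63 with its brightest probe, while 1 of its 2 probes was called lower. NOS2, the inducible nitric oxide synthase, had 0.04 and became -0.22 with median scaling, and the survival genes CFLAR and BCL2A1 had 0.14 and 0.91. TNFAIP6 had 1.54 (confidence interval from 0.31 to 2.77, adjusted p = 0.0511 in limma) and was called under 7 of the 13 limma settings. With these brightest probes none of the 6 was called.

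Among 13 related cytokines 4 were tested. IL18, which is processed by caspase-1 like IL-1β, had 3.17 and 3.40 in KO compared with 1.07 and 1.39 in WT, and rose by 2.05 (adjusted p = 0.00360 in limma). TNFSF13B, the B cell survival factor BAFF, rose by 1.96 (adjusted p = 0.00858 in limma). Both were called under all 13 limma settings. LTA had -0.17 with its brightest probe, while 1 of its 2 probes was called higher, and LIF had -0.45 and was not called.

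**Figure D5:**
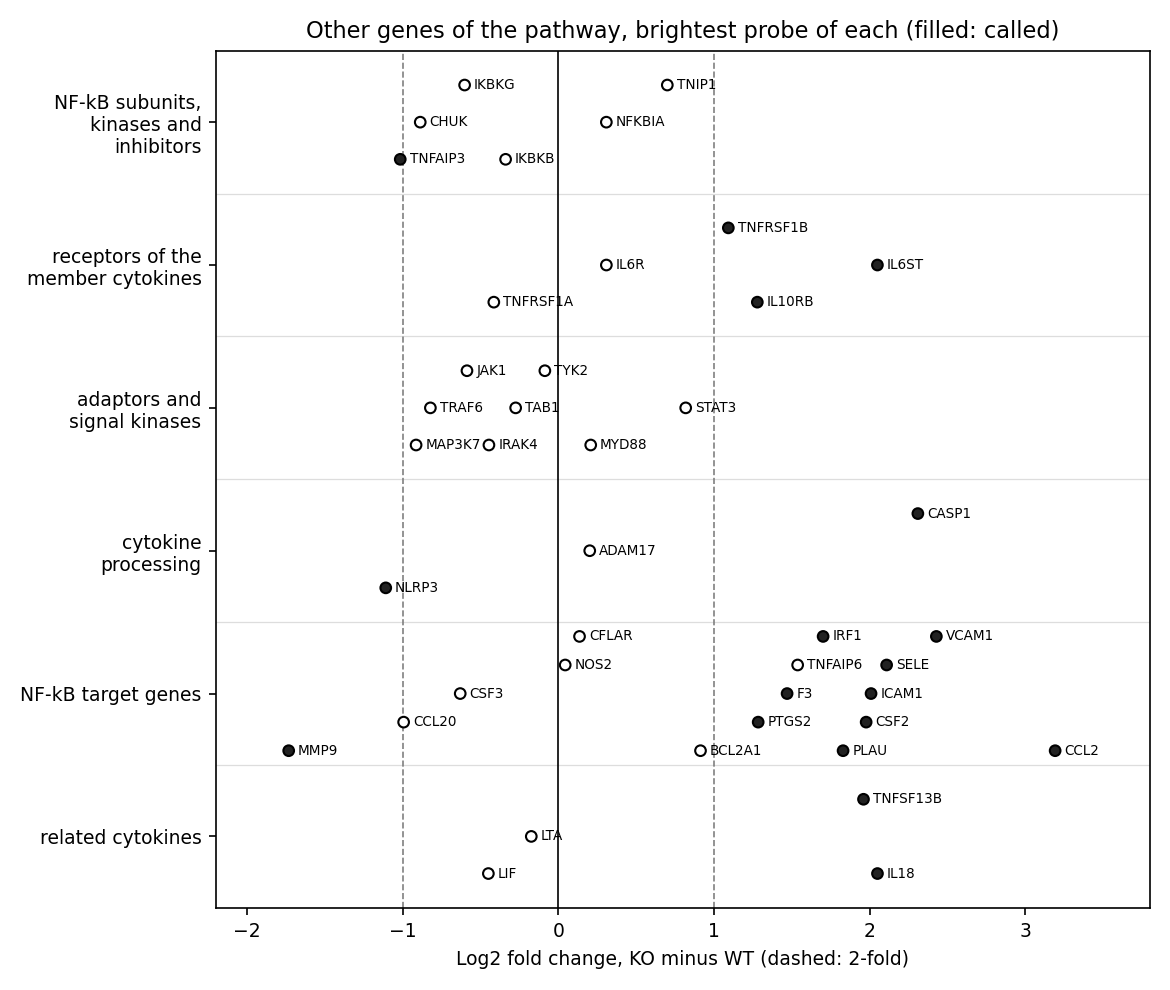
Log2 fold change, KO minus WT (x axis), of the brightest probe of each tested pathway gene, in 6 lists (y axis, height within a list carries no value), filled where called. To the right of the dashed 2-fold line, filled points are 9 of 16 tested NF-kB target genes and 3 of 5 receptors. Related cytokines have 2 of 4 there and cytokine processing 1 of 3. In the lists of NF-kB kinases and inhibitors and of adaptors the only filled point is TNFAIP3 at -1.02.

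Across the 4 arrays, the patterns most like NFKB1 among 2693 other tested genes were those of TICAM2, LACTB2 and IFIH1, with Euclidean distances between centred log2 values of 0.06, 0.08 and 0.11. As many as 89 genes lay within 0.3 of NFKB1, so that this pattern was a common one. For IL10 the nearest were DRAM1, UBD and ADORA3, at 0.14, 0.16 and 0.16, and 10 genes lay within 0.3. With 4 arrays these distances mostly reflect the difference between KO and WT.

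With median scaling instead of the 75th percentile, the median of all tested probes went from -0.06 to -0.32, and the share of all calls that were increases from 61.7% to 47.9%. This scaling shifts every probe of an array by the same amount. Under it 8 of the 14 probes were called higher, and TNF probe 1 and CXCL8 were the probes lost.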

How the data were processed

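Thymus RNA was labelled with Cy3 per the labels and hybridised to 4 Agilent porcine arrays, and groups and replicate numbers came from the sample titles. The methods also speak of Cy-3 and Cy-5, but each file holds 1 channel. The intensity of each spot was deposited by the authors as output of Agilent Feature Extraction 11.0.1.1 (per the submitters' processing notes), background-subtracted and not normalized between arrays. The authors also deposited log2 values of 27974 probes for the same arrays, used here as an alternative. Control spots and outlier marks were left out (6 probes), and no spot was saturated. The log2 signals of the spots of a probe were averaged, and each array was then scaled to its 75th percentile. Probes were fitted with lmFit and eBayes of limma 3.58.1 in R 4.3.3, with Benjamini-Hochberg adjustment over all 31959 tested probes. The procedure was also run on simulated data with independent errors drawn from limma's own model. That run cannot show whether the model holds for these arrays. Tables and plots used Python 3.11.15, pandas 2.3.3, numpy 2.4.6 and matplotlib 3.10.9. The RefSeq table of Sscrofa11.1 named 6686 of the 7111 probes with a RefSeq accession, and a gene level is its brightest probe. All probes of the chosen genes are named, as are the called genes of the pathway lists and the 3 genes nearest to NFKB1 and to the gene with the largest change. The genes and lists were chosen with earlier results of these data known. The result of 1 listed gene is not reported here, and its list was counted without it.

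Alternatives were median scaling, quantile normalization, normexp (offset 50, on the median spot intensity, since the files hold no mean), the authors' log2 values, no filter or a filter on all 4 arrays, a block for the slide, a block for the replicate number, an intensity trend, the methods' t-test, and each array left out. With 2 arrays per genotype the labels have 6 permutations, so that an exact permutation test (two-sided) of a gene cannot go below 0.333, and the number of arrays limits the precision.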

Additional observations from a re-analysis of the deposited data

How the results depend on the processing

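All 14 probes kept their direction under the alternatives that were run. Of the 208 values of single probes, 174 kept their call or lack of one, 33 lost it and 1 gained it. The number of cytokine and NF-kB probes called higher was 10, and it was 8 with median scaling, 10 with quantile normalization, 7 with normexp, 9 with the authors' log2 values, 9 with no filter and 9 with a filter on all 4 arrays, and between 7 and 11 with 1 array left out. The number called lower was 0 under each of them. The methods' t-test called 2 of the 14 probes higher after Benjamini-Hochberg adjustment and 0 after the Bonferroni correction, where 9 had an unadjusted p under 0.05 and at least 2-fold. Of all tested probes 10882 were called, compared with 6610 with normexp, 1489 by the methods' t-test with Benjamini-Hochberg adjustment and 0 with Bonferroni (8610 at an unadjusted p under 0.05 and at least 2-fold), and between 6090 and 12713 with 1 array left out. With 1 array left out its genotype has a single sample, which is assumed to vary like the other genotype, and for the other alternatives the cause was not tested. IL6 probe 2, which was not well above background in WT, went from 2.05 to 0.40 with normexp.

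The labels number the replicates without stating a pairing, and these arrays cannot decide it. Same-numbered arrays lay on different slides, so that a pairing by number and an effect of the slide cannot be told apart. The deviations of same-numbered arrays from their group means correlated at -0.29 over probes, and with the replicate number as a block 10658 probes were called, among them 10 of the 14. The crossed pairing, added after the data were seen, is the same as the slide, and that block gave 11136 probes and 9 of the 14. The deviations of arrays on the same slide correlated at 0.29, by construction the same value with the opposite sign.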
